A study of Mus musculus with 9 samples.

Results

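Microglia are the resident macrophages of the brain, and the genes described here form the set that marks them in undisturbed tissue: P2ry12, P2ry13, Gpr34, Slc2a5, Tmem119, Siglech, Cx3cr1, Csf1r and Sall1. They were followed in brain RNA of adult male C57BL/6 mice, aged 50 to 53 days, on 9 one-colour Agilent arrays, each holding RNA of a separate animal. The 9 genes were chosen on measured values, since they were named with results of these same arrays known, and Slc2a5 was named for its low level after occlusion. Their values against sham are therefore given as a description. Calls among them from the fit across all genes are counted once for these comparisons, and in the sensitivity section, with nothing read from the counts, while genes outside the set were tested in every comparison. Every non-control probe whose RefSeq accession maps to one of these genes was taken, which gave 13 probes of the 55681 non-control probes: 3 for Csf1r, 2 each for Siglech and Cx3cr1, and 1 for each of the other members. All 13 were well above background on all 9 arrays, and all 9 genes are among the 30837 genes tested. Gene positions below are those of the GRCm38.p6 assembly. The VEGF group (3 mice) had a transient middle cerebral artery occlusion (MCAO) of 90 min, followed 3 h after reperfusion by an injection of 1 µl into the right lateral ventricle, which held the recombinant human protein VEGF-A165 (10 µg/ml). The MCAO group (3 mice) had the same occlusion and received phosphate-buffered saline by the same route. The sham group (3 mice) had sham surgery, and no injection is stated for it. Brains of every group were taken 24 h after reperfusion, and neither the hemisphere nor the region homogenised is stated.

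In the healthy brain, microglia survey the tissue with motile processes and are maintained by signalling through the receptor encoded by Csf1r. Their identity depends on transforming growth factor beta and on the transcription factor encoded by Sall1, and the P2ry12 receptor steers their processes toward nucleotides released by injured cells. In many models of brain injury and disease the homeostatic genes fall while a set of activation genes appears, and macrophages that arrive from the blood carry few of them.

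The intensity at the 75th percentile of an array lay between 848 and 1830 in the VEGF group, between 923 and 2070 in the MCAO group and between 1420 and 1530 in the sham group. Levels are therefore given below as a percent of each array's own 75th percentile, or as log2 of that ratio. Such levels can be set against each other within a probe and not between probes. VEGF array 1 and MCAO array 1 stood apart from the other 7: on the first principal component of all genes, which held 56.7% of the variance, they lay at 141 and 130, the other 4 arrays of the VEGF and MCAO groups between -7.79 and 16.0, and the sham arrays between -104 and -90.1. On the same arrays the median of 15 neuron markers was lowest, at -2.50 and -2.46 on the log2 scale relative to the sham mean, against -0.59 to -0.33 on the other 4. All 6 VEGF and MCAO arrays shared 1 slide and all 3 sham arrays another, so that slide and occlusion cannot be told apart in any comparison with sham. MCAO array 1 was also scanned on another day than the other 8. Members are given with and without the first VEGF and MCAO arrays where these differ. Without both, the fit called 6514 of the 30837 genes in VEGF against sham and 7291 in MCAO against sham, in either direction. With all arrays it called 717 and 845. List counts given below without both first arrays are to be read beside these totals.

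The 9 genes differed among themselves. P2ry12 and Slc2a5 were several-fold lower after occlusion in both groups, P2ry13, Gpr34 and Tmem119 were lower by less, Cx3cr1, Csf1r and Sall1 lay near or somewhat above their sham level, and the 2 probes of Siglech went opposite ways. In VEGF against sham, 2 of the 9 genes were called lower at an adjusted p of 0.05 over all genes, where 0.405% of all genes were, and none higher, where 1.92% of all genes were. The VEGF values lay wholly below the sham values for 2 members and wholly above for 2, against 26.4% and 16.7% of all genes. In MCAO against sham, 2 members were again called lower and none higher, where 0.584% and 2.16% of all genes were, and the MCAO values lay wholly below the sham values for 5 members and wholly above for 2, against 22% and 18.5% of all genes. Both comparisons share the sham arrays, and since the genes were named with these contrasts known, nothing is read from these counts. The median log2 difference over the 9 genes was -0.20 in VEGF against sham and -0.84 in MCAO against sham, beside -0.16 and -0.07 over all genes.

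**Figure D1:**
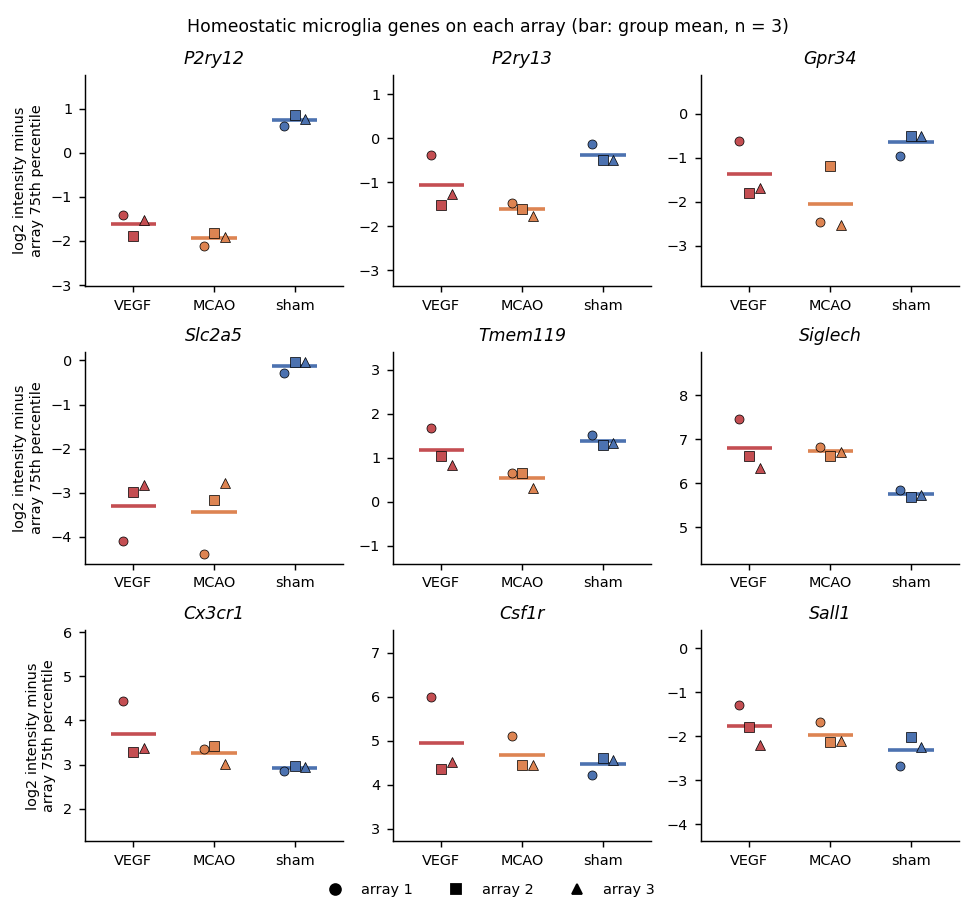
Level of each of the 9 genes on each array, as log2 of the processed intensity minus the array's 75th percentile (y axis; every panel spans the same height), in the VEGF, MCAO and sham groups; bars are means of 3 arrays, and circles, squares and triangles are arrays 1, 2 and 3. P2ry12 and Slc2a5 lie below sham on all 6 arrays after occlusion, while VEGF array 1 lies on or above the sham mean for the other 7 genes.

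P2ry12 encodes the Gi-coupled receptor for ADP that directs microglial processes to sites of injury. Its level was 37.7%, 26.9% and 34.9% of the array's 75th percentile in VEGF mice, 23.2%, 28.4% and 26.7% in MCAO mice, and 153%, 182% and 171% in sham mice. The occluded groups did not overlap with sham, and no array after occlusion came near the lowest sham value. The log2 difference was -2.36 ± 0.20 in VEGF against sham and -2.69 ± 0.20 in MCAO against sham (standard error, n = 3 each), which is 5.12-fold and 6.47-fold lower. Ordered from the lowest difference, P2ry12 was 94th and 68th of the 30837 genes. Without the first VEGF and MCAO arrays the differences were -2.46 and -2.61. In RNA of a whole homogenate, fewer microglia and less of a transcript per microglial cell cannot be told apart, here and for every gene below.

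P2ry13 encodes the neighbouring and closely related ADP receptor. It stood at 77.1%, 35.1% and 41.6% in VEGF mice, 36.1%, 32.9% and 29.4% in MCAO mice, and 90.8%, 70.6% and 70.6% in sham mice. All 3 MCAO arrays lay below all sham arrays, whereas VEGF array 1 fell inside the sham range and the other 2 VEGF arrays below it. Its log2 difference was -0.67 ± 0.30 in VEGF against sham and -1.23 ± 0.30 in MCAO against sham. Without the first arrays of both groups the differences were -1.01 and -1.30.

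Gpr34, at chrX:13622650-13640859, encodes a receptor for lysophosphatidylserine. It stood at 65.3%, 28.6% and 31.0% in VEGF mice, 18.2%, 44.2% and 17.4% in MCAO mice, and 51.5%, 70.6% and 70.6% in sham mice. As for P2ry13, only VEGF array 1 reached the sham range, and the MCAO arrays were spread over more than 1 log2 unit (SD 0.76). Group means differed by -0.72 ± 0.44 log2 units in VEGF against sham and by -1.40 ± 0.44 in MCAO against sham. Without the first arrays they differed by -1.09 and -1.20.

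P2ry12 and P2ry13 lie beside each other on the minus strand of chromosome 3 in GRCm38.p6, P2ry12 at chr3:59216271-59262985 and P2ry13 at chr3:59207892-59210882, with 5388 bases between them. Both lie within the span of Med12l, a Mediator subunit gene whose log2 difference was -0.58 ± 0.39 in VEGF against sham and -0.71 ± 0.39 in MCAO against sham. P2ry14, a further P2Y receptor gene of the locus whose product binds UDP-glucose, had -0.59 ± 0.37 and -0.75 ± 0.37. None of these differences passed the test (adjusted p = 0.359 and 0.318 for Med12l, 0.336 and 0.276 for P2ry14). The 250 bases before the start sites of P2ry12, P2ry13 and of Slc2a5 are shown because these are the 2 genes with the lowest values and the genomic neighbour of one of them. They are credited to RefSeq (GRCm38.p6), written 5′ to 3′ on the strand of the gene, and capitals mark the only match found in them to 3 motifs searched on both strands: GAGGAA, the core of sites bound by the myeloid factor PU.1, TGANTCA, the AP-1 site, and TAAAAATA, a core of MEF2 sites.
P2ry12, chr3:59262986-59263235, minus strand: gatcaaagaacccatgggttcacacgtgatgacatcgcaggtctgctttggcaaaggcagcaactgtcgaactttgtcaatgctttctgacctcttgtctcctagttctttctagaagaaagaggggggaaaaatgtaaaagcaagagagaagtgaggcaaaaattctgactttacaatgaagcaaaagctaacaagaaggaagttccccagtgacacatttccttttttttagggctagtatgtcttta
P2ry13, chr3:59210883-59211132, minus strand: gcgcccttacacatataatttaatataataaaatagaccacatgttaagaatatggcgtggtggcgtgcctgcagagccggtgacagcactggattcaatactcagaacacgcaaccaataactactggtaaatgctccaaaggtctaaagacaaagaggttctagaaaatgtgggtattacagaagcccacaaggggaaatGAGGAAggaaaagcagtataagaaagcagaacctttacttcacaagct
Slc2a5, chr4:150119094-150119343, plus strand: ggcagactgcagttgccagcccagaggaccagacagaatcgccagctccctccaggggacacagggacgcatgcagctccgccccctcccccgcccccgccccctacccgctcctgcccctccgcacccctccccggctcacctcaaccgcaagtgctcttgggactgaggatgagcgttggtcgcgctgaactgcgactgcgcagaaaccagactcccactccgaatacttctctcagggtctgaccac
GAGGAA was found once in the P2ry13 window, from -48 to -43 relative to the start site, and in 23.3% of all 32851 promoter windows of the table. TGANTCA and TAAAAATA were in none of the 3 windows, and in 6.75% and 2.45% of all windows. The P2ry12 and P2ry13 windows each held 41.6% G and C, and the Slc2a5 window 66.4%, beside a median of 52.4% over all windows. A match is a description of these letters only, and its absence says nothing of a factor.

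Of 12 other P2 purinergic receptors, all measured, 2 were called higher in VEGF against sham and 3 in MCAO against sham, and none lower. P2ry6, the UDP receptor linked to phagocytosis, rose by 2.85 ± 0.35 on the log2 scale in VEGF against sham (adjusted p = 0.00596) and by 2.83 ± 0.35 in MCAO against sham (adjusted p = 0.00559). P2ry2, a receptor for ATP and UTP, rose by 3.69 ± 0.76 (adjusted p = 0.0463) and 4.12 ± 0.76 (adjusted p = 0.0277). P2ry10, a lysophospholipid receptor of leukocytes in spite of its name, did not pass background on any array of the sham group. It was at least 6.60-fold higher in VEGF than in sham mice, where it passed background on 2 of 3 VEGF arrays and missed the threshold (adjusted p = 0.0522), and at least 7.52-fold higher in MCAO than in sham mice (adjusted p = 0.0371). That call was lost under 7 of 22 alternatives, among them each left-out sham array (adjusted p = 0.0917 to 0.171) and normexp background correction, with a log2 difference of 0.39 (adjusted p = 0.549). The P2ry2 call in MCAO against sham was lost under 5 of 23, among them each left-out sham array (adjusted p = 0.0975 to 0.140), and that of P2ry6 under none. P2rx4, an ATP-gated channel of activated microglia, had differences of 0.98 ± 0.31 and 1.01 ± 0.31 that did not pass (adjusted p = 0.127 and 0.125). Without both first arrays 3 of the 12 were called higher and 1 lower in each comparison.

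Slc2a5 encodes GLUT5, a facilitative transporter selective for fructose, whose transcript in mouse brain is found mainly in microglia. It had the lowest values of the 9 genes relative to sham. Its level was 5.83%, 12.6% and 14.1% of the array's 75th percentile in VEGF mice, 4.73%, 11.2% and 14.6% in MCAO mice, and 82.4%, 98.0% and 97.4% in sham mice. Every array after occlusion lay far below every sham array. Within both occluded groups array 1 was the lowest, at 49.4 and 43.7 intensity units against 217 to 289 on the other 4, and still well above background. The log2 difference was -3.19 ± 0.46 in VEGF against sham and -3.33 ± 0.46 in MCAO against sham, which is 9.14-fold and 10.1-fold lower. Ordered from the lowest difference, Slc2a5 was 14th and 21st of all genes tested. Without the first arrays the differences were -2.79 and -2.85. The gene lies at chr4:150119344-150144168, and 3 other genes within 100 kb were measured, none of which passed the test. They were Gpr157, an orphan receptor gene (-0.53 ± 0.30 and -0.80 ± 0.30, adjusted p = 0.287 and 0.181), the glycolytic enolase gene Eno1 (-0.35 ± 0.19 and -0.34 ± 0.19, adjusted p = 0.271 and 0.320) and Car6, a secreted carbonic anhydrase. Car6 passed background on every VEGF and MCAO array and on no sham array, and was at least 16.3-fold higher in VEGF than in sham mice (adjusted p = 0.179) and at least 103-fold higher in MCAO than in sham mice (adjusted p = 0.0700).

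No other sugar transporter was called in the fit of all arrays. Of 13 further Slc2a and Slc5a genes 9 were measured, and none passed the test in either comparison with sham, with a median log2 difference of -0.47 in VEGF against sham and -0.60 in MCAO against sham. At an unadjusted p of 0.05, 3 and 5 of them passed. Without the first VEGF and MCAO arrays 1 was called higher in VEGF against sham, and in MCAO against sham Slc2a1 was called higher (adjusted p = 0.0421) and Slc2a8 and Slc2a13 lower (adjusted p = 0.0344 and 0.0269). Slc2a1, the glucose transporter of brain endothelium and glia, had 1.38 ± 0.49 and 1.51 ± 0.49 (adjusted p = 0.152 and 0.137). Slc2a9, a urate transporter, had 1.67 ± 0.56 and 1.39 ± 0.56 (adjusted p = 0.139 and 0.203). Slc2a8, an intracellular glucose transporter, had -0.51 ± 0.19 and -0.60 ± 0.19 (adjusted p = 0.168 and 0.136). Slc2a13, a proton-coupled myo-inositol transporter, had -0.92 ± 0.54 and -1.32 ± 0.54 (adjusted p = 0.302 and 0.207). These 4 had values on both sides of 0. The size of each was well under that of Slc2a5, which was named for its low level in these arrays, so nothing is read from that.

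Of 13 genes of fructose and polyol metabolism, all measured, 1 was called higher in each comparison with sham and none lower, with median log2 differences of 0.16 and 0.07. The one called was Hk2, a hexokinase that phosphorylates glucose and, with lower affinity, fructose. It rose by 2.37 ± 0.33 on the log2 scale in VEGF against sham (adjusted p = 0.0114) and by 2.31 ± 0.33 in MCAO against sham (adjusted p = 0.0112). Hk3, the hexokinase of myeloid cells, had 2.54 ± 0.62 and 2.70 ± 0.62 (adjusted p = 0.0782 and 0.0610). Pfkfb3, which makes an activator of glycolysis, had 1.44 ± 0.38 and 1.53 ± 0.38 (adjusted p = 0.0930 and 0.0772). Tkfc, the triose kinase of fructose breakdown, had -0.52 ± 0.26 and -0.54 ± 0.26 (adjusted p = 0.249 and 0.273). No gene of this list fell past the threshold. Without both first arrays 3 of the 13 were called higher in each comparison and none lower. In MCAO against sham Hk3 (2.22, adjusted p = 0.00510) and Pfkfb3 (1.26, adjusted p = 0.0174) were among them.

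Tmem119 encodes a transmembrane protein that in brain marks microglia and is missing from most other macrophages. It stood at 320%, 205% and 178% in VEGF mice, 157%, 158% and 124% in MCAO mice, and 287%, 244% and 251% in sham mice. All MCAO arrays lay below all sham arrays, and VEGF array 1 was the highest of the 9. This gave log2 differences of -0.20 ± 0.25 in VEGF against sham and -0.84 ± 0.25 in MCAO against sham. Without the first arrays the differences were -0.44 and -0.90. Its gene lies at chr5:113793729-113800396, and the neighbouring Selplg, which encodes the selectin ligand PSGL-1 and is also used as a homeostatic microglia marker, had -0.48 ± 0.46 and -0.89 ± 0.46 (adjusted p = 0.504 and 0.287).

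Siglech, at chr7:55768154-55779448, encodes a sialic acid-binding lectin that in mouse brain marks microglia and elsewhere plasmacytoid dendritic cells. Its 2 probes disagreed. The brighter one, which stands for the gene in all counts here, read 17571%, 9891% and 8182% in VEGF mice, 11376%, 9903% and 10556% in MCAO mice, and 5782%, 5183% and 5294% in sham mice. Every array after occlusion was above every sham array, with log2 differences of 1.05 ± 0.28 and 0.97 ± 0.28, and of 0.73 and 0.92 without the first arrays. The dimmer probe, annotated to the same transcript accession, read 65.9%, 16.4% and 20.4% in VEGF mice, 34.1%, 19.95% and 17.6% in MCAO mice, and 143%, 178% and 161% in sham mice. On this probe every array after occlusion was below every sham array, with log2 differences of -2.51 ± 0.50 and -2.81 ± 0.50. On the sham arrays the brighter probe exceeded 98.7% of all non-control probes, and the dimmer one 80.2%. Which of them reads the Siglech transcript was not tested, and the direction for this gene depends on that choice: with the mean of both probes the differences were -0.73 and -0.92.

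**Figure D2:**
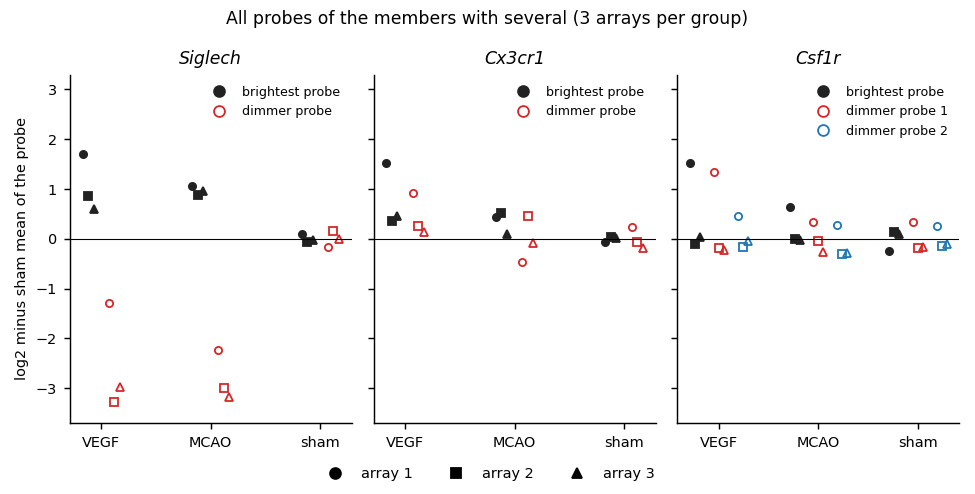
All probes of Siglech, Cx3cr1 and Csf1r, as log2 minus the sham mean of the same probe (y axis), in the VEGF, MCAO and sham groups; filled black points are the brightest probe, open points the dimmer ones, and shapes are arrays 1 to 3. The 2 Siglech probes lie on opposite sides of 0 on all 6 arrays after occlusion, while the probes of Cx3cr1 and Csf1r stay within 1 log2 unit of 0 on all but VEGF array 1.

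Cx3cr1, at chr9:120048683-120068296, encodes the receptor for the neuronal chemokine fractalkine and is carried by microglia and by monocytes. On its brighter probe it stood at 2182%, 967% and 1039% in VEGF mice, 1018%, 1077% and 803% in MCAO mice, and 725%, 778% and 765% in sham mice. All 6 arrays after occlusion lay above sham, VEGF array 1 by the most. Group means differed by 0.78 ± 0.31 log2 units in VEGF against sham and by 0.34 ± 0.31 in MCAO against sham, and by 0.41 and 0.30 without the first arrays. The second probe had 0.44 ± 0.30 and -0.03 ± 0.30, so that no side of 0 is common to both probes in MCAO mice.

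Csf1r, at chr18:61105572-61131139, encodes the receptor for colony-stimulating factor 1 and interleukin 34, on which microglia depend for survival, and it is expressed throughout the monocyte and macrophage lineage. Its brightest probe read 6392%, 2055% and 2279% in VEGF mice, 3456%, 2193% and 2172% in MCAO mice, and 1873%, 2444% and 2353% in sham mice. The first arrays of both occluded groups were the highest, and the other 4 lay within the sham range. The log2 difference was 0.49 ± 0.43 in VEGF against sham and 0.20 ± 0.43 in MCAO against sham, and -0.03 and -0.02 without the first arrays. The remaining 2 probes gave 0.32 and 0.08 in VEGF against sham and 0.01 and -0.10 in MCAO against sham. Csf1r thus stayed close to its sham level on every probe outside the 2 arrays that stood apart.

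Of 12 ligands and partners of these receptors, all measured, 1 was called higher in each comparison with sham and none lower. It was Csf1, a ligand of Csf1r, which rose by 1.80 ± 0.31 on the log2 scale in VEGF against sham (adjusted p = 0.0246) and by 1.89 ± 0.31 in MCAO against sham (adjusted p = 0.0194). Without each sham array it missed the threshold in MCAO against sham (adjusted p = 0.0616 to 0.108), and without both first arrays 5 of the 12 were called higher in each comparison. Tyrobp, the DAP12 adaptor through which Siglech and other myeloid receptors signal, had 2.23 ± 0.53 and 2.11 ± 0.53 (adjusted p = 0.0725 and 0.0765). Its relative Hcst had 1.90 ± 0.44 and 1.70 ± 0.44 (adjusted p = 0.0695 and 0.0843), and Tgfb1 had 2.16 ± 0.59 and 1.85 ± 0.59 (adjusted p = 0.0979 and 0.135). Another pair of ligands was picked after their values were seen, because they bind members. Il34, the neuronal ligand of Csf1r, had -0.73 ± 0.31 and -0.85 ± 0.31 (adjusted p = 0.199 and 0.174). Cx3cl1, which encodes fractalkine, had -1.34 ± 0.54 and -1.47 ± 0.54 (adjusted p = 0.184 and 0.174). Both had their values in the direction of the neuron markers, all 15 of which were below 0 in both comparisons with none passing the test, 2 and 4 of them at an unadjusted p under 0.05. Without the first VEGF and MCAO arrays 4 and 5 of the 15 were called lower, and so was Cx3cl1 in MCAO against sham (-0.95, adjusted p = 0.0115). The part of the neuron markers in these values was not tested.

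Sall1, at chr8:89027242-89044162, encodes a zinc-finger factor that in brain macrophages is restricted to microglia and holds their identity. It stood at 40.6%, 29.0% and 21.9% in VEGF mice, 31.2%, 22.9% and 23.0% in MCAO mice, and 15.6%, 24.8% and 21.0% in sham mice. The groups overlapped, and the first arrays of both occluded groups were again the highest of their group. The log2 difference was 0.56 ± 0.29 in VEGF against sham and 0.34 ± 0.29 in MCAO against sham, and 0.33 and 0.19 without the first arrays.

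Of 12 transcription factors of the microglial and myeloid lineage, all measured, 1 was called higher in each comparison with sham and none lower, with median log2 differences of 1.41 and 1.44. It was Runx1, a factor of blood and myeloid development, which rose by 3.56 ± 0.71 in VEGF against sham (adjusted p = 0.0416) and by 3.81 ± 0.71 in MCAO against sham (adjusted p = 0.0291). Spi1, which encodes PU.1, had 1.80 ± 0.47 and 1.89 ± 0.47 (adjusted p = 0.0894 and 0.0752). Ikzf1 had 1.34 ± 0.31 and 1.28 ± 0.31 (adjusted p = 0.0671 and 0.0693), and Cebpa 1.41 ± 0.37 and 1.51 ± 0.37 (adjusted p = 0.0885 and 0.0708). The count depended on single arrays: it ran from 0 to 6 in VEGF against sham and from 0 to 8 in MCAO against sham, and was 0 in both without each sham array and without MCAO array 2 or 3. Without single sham arrays Runx1 had an adjusted p of 0.0952 to 0.136 in MCAO against sham. Without both first arrays the count was 8 in each.

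A wider list of 20 further genes used as homeostatic microglia markers had median log2 differences of 0.39 in VEGF against sham and 0.27 in MCAO against sham, with 7 and 8 of the 20 below 0. In each comparison 2 were called higher and none lower. They were Gpr84, a receptor for medium-chain fatty acids that is also known to be induced in activated myeloid cells, and Pros1, which encodes protein S, a ligand of the Mer and Tyro3 receptors. Gpr84 rose by 4.48 ± 0.30 in VEGF against sham (adjusted p = 0.000443) and by 4.74 ± 0.30 in MCAO against sham (adjusted p = 0.000305). Pros1 rose by 2.24 ± 0.37 (adjusted p = 0.0208) and 2.23 ± 0.37 (adjusted p = 0.0196), and missed the threshold in MCAO against sham without each sham array (adjusted p = 0.0831 to 0.0966). Crybb1, a crystallin gene of microglia, had -1.69 ± 0.55 and -1.98 ± 0.55 (adjusted p = 0.132 and 0.0973), and Nav3, a neuron navigator gene, -0.96 ± 0.39 and -1.01 ± 0.39 (adjusted p = 0.182 and 0.189). Without the first arrays 3 of the 20 were called lower in each comparison, Crybb1 among them in MCAO against sham (-2.18, adjusted p = 0.0368). In the same fit 2 of the 20 were called higher in VEGF against sham and 3 in MCAO against sham. That fit called 6514 and 7291 of all 30837 genes, higher or lower, so nothing is read from these counts.

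All calls among genes shared by microglia with other myeloid cells were higher. Of 17 measured pan-myeloid genes, 5 were called higher in VEGF against sham and 6 in MCAO against sham and none lower, with medians of 1.81 and 1.75. Leaving out single arrays moved these counts to between 1 and 9 and to between 1 and 13, with 1 in both without each sham array and in MCAO against sham also without MCAO array 2 or 3, and without both first arrays 14 were called in each. Ptprc, which encodes the leukocyte antigen CD45, rose by 1.86 ± 0.36 (adjusted p = 0.0364) and 1.75 ± 0.36 (adjusted p = 0.0416, lost under 8 of 23 alternatives in MCAO against sham), and Lyz2, the lysozyme of macrophages and granulocytes, by 3.78 ± 0.29 (adjusted p = 0.000758) and 3.16 ± 0.29 (adjusted p = 0.00155). Of 15 measured activated microglia genes, 8 and 10 were called higher, with medians of 3.38 and 3.67, and from 3 to 11 and from 5 to 12 with single arrays left out. Ch25h, which makes 25-hydroxycholesterol, rose by 5.38 ± 0.30 (adjusted p = 0.000225) and 5.30 ± 0.30 (adjusted p = 0.000223), and Spp1, which encodes osteopontin, by 4.90 ± 0.65 (adjusted p = 0.00952) and 5.26 ± 0.65 (adjusted p = 0.00631). Of 11 measured genes of infiltrating monocytes, 7 were called higher in each comparison, with medians of 3.25 and 3.19, and from 4 to 8 and from 5 to 8 with single arrays left out. Arg1 and Chil3, genes of alternatively activated and monocyte-derived macrophages, rose by 5.99 ± 0.71 (adjusted p = 0.00521) and 6.51 ± 0.70 (adjusted p = 0.00364) in VEGF against sham, and by 6.15 ± 0.71 (adjusted p = 0.00431) and 5.97 ± 0.70 (adjusted p = 0.00486) in MCAO against sham. Of 12 neutrophil genes 6 were called higher in each comparison, and from 1 to 7 with single arrays left out, with 1 in VEGF against sham without each sham array and in MCAO against sham without sham array 1, sham array 2 or MCAO array 3. Of 10 border-associated macrophage genes 1 was called higher in MCAO against sham, Siglec1 (2.54 ± 0.52, adjusted p = 0.0430), and none in VEGF against sham, where Siglec1 had 2.35 ± 0.52 (adjusted p = 0.0606) and 6 passed an unadjusted p of 0.05. The Siglec1 call was lost under 11 of 23 alternatives, among them each left-out sham array (adjusted p = 0.128 to 0.163), and without both first arrays 5 and 8 of the 10 were called higher in VEGF and in MCAO against sham. Among 10 astrocyte markers Gfap, the filament protein of reactive astrocytes, was called higher in VEGF against sham (2.02 ± 0.39, adjusted p = 0.0396) and none in MCAO against sham, where 1 passed before adjustment. The Gfap call in VEGF against sham was lost without each sham array, each VEGF array and MCAO array 3. Its mean log2 level was 4.91 in VEGF, 4.70 in MCAO and 2.89 in sham mice. In MCAO against sham its difference ran from 1.46 to 2.52 over 23 alternatives and passed under 7 of them. Without both first arrays that difference was 2.26 (adjusted p = 0.00203). Among 12 endothelial markers Slco1a4, an organic anion transporter of the blood-brain barrier, was called lower in both (-2.27 ± 0.25, adjusted p = 0.00381, and -1.62 ± 0.25, adjusted p = 0.0147), the second of these not without each sham array (adjusted p = 0.0627 to 0.0892). Most endothelial markers went the other way, with medians of 1.19 and 1.04 and only 2 and 3 of the 12 below 0. Without both first arrays 5 of the 12 were called higher and 1 lower in each comparison. None of 10 oligodendrocyte markers was called, with 0 and 3 passing before adjustment and medians of 0.59 and 1.19. The part of arriving cells in the levels of the members was not tested.

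Set against the median of the pan-myeloid genes on the same array, all 9 members were lower on all 6 arrays after occlusion, as were 91.3% of all 30837 genes, so nothing is read from that count and the values are a description. P2ry12 lay between -5.07 and -3.59 log2 units from that median in VEGF mice, between -4.97 and -4.04 in MCAO mice, and between -0.22 and 0.12 in sham mice. Slc2a5 lay between -6.90 and -4.03 in VEGF mice, between -6.40 and -4.29 in MCAO mice, and between -0.25 and 0.16 in sham mice. Csf1r varied little on this scale, between -1.38 and -1.28 in VEGF mice and between -1.65 and -1.47 in MCAO mice, beside -0.32 to 0.17 in sham mice. The high values of Csf1r and Cx3cr1 on VEGF array 1 thus went with a high pan-myeloid median there, of 2.92, against 1.20 and 1.32 on the other VEGF arrays. The brighter Siglech probe lay between -1.22 and -0.33 in VEGF mice, between -1.04 and -0.60 in MCAO mice, and between -0.06 and 0.05 in sham mice.

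**Figure D3:**
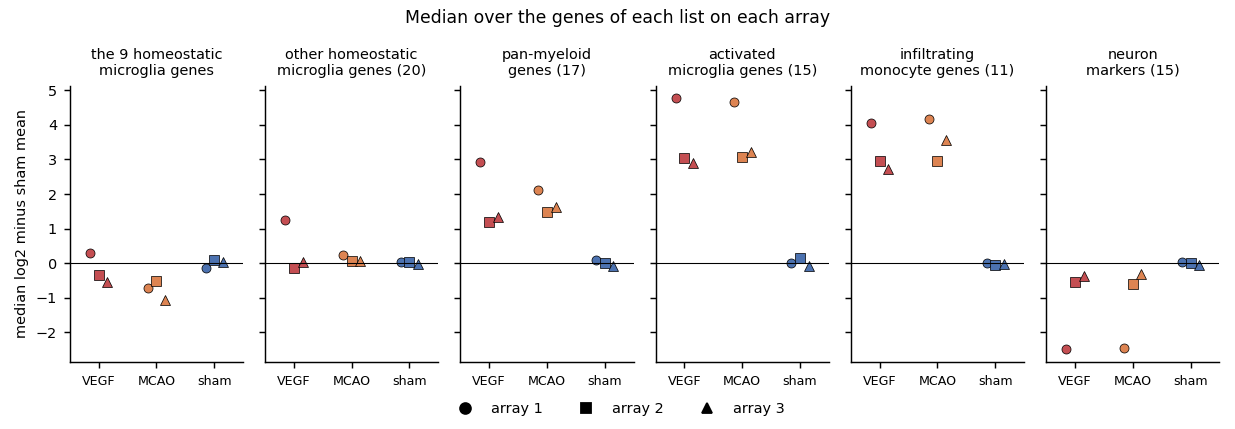
Median over the genes of each list on each array, as log2 minus the sham mean of each gene (y axis), in the VEGF, MCAO and sham groups; circles, squares and triangles are arrays 1, 2 and 3, and numbers in brackets are genes measured. The medians of the pan-myeloid, activated microglia and monocyte genes lie above 1 on all 6 arrays after occlusion, the 9 homeostatic genes lie below 0 on 5 of these, and array 1 of both occluded groups is lowest for the neuron markers.

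Ventricular VEGF was compared with saline after the same occlusion, within 1 slide. All 9 members had a log2 difference above 0 in VEGF against MCAO, where 55.8% of all genes were below 0. Their median was 0.34 beside -0.04 over all genes. None passed the test (adjusted p = 1.00 for each), where 0.00649% of all genes did. The differences were largest for Gpr34 (0.68, 95% interval -0.32 to 1.68), Tmem119 (0.64, 0.07 to 1.21) and P2ry13 (0.56, -0.12 to 1.24). P2ry12 had 0.34 (-0.11 to 0.79) and Slc2a5 0.14 (-0.92 to 1.20), so that a difference of up to about 1 log2 unit in either direction lies within the interval for the transporter. Tmem119 was the 1 member below 0.05 before adjustment, and the 1 member whose VEGF arrays, at 178% to 320%, lay wholly above its MCAO arrays, at 124% to 158%; 1.96% of all genes did so. The 9 values share their animals and VEGF array 1, which was the highest VEGF array for 8 of the 9 genes, Slc2a5 being the exception. Without both first arrays the median was 0.11, Tmem119 had 0.45, and Siglech and Csf1r turned to -0.18 and -0.01.

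**Figure D4:**
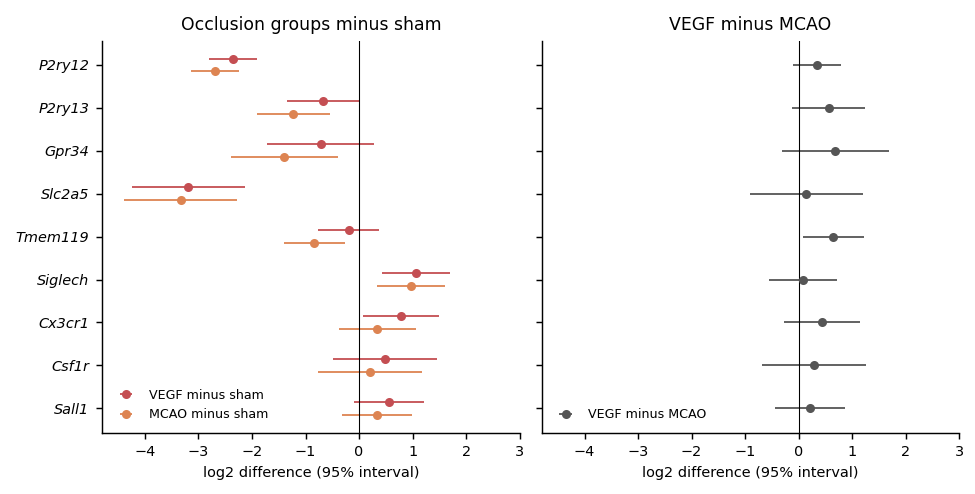
Log2 differences of the 9 genes (x axis) with 95% intervals from the fit of all 9 arrays, 3 per group: VEGF minus sham and MCAO minus sham on the left, VEGF minus MCAO on the right. P2ry12 and Slc2a5 lie left of -2 in both comparisons with sham, and in VEGF minus MCAO all 9 estimates lie between 0.09 and 0.68, with 8 of the intervals reaching across 0.

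Among the members, P2ry13 and Tmem119 had the most alike profiles on both sets of arrays, with a Pearson r of 0.93 over all 9 arrays and 0.92 over the 6 VEGF and MCAO arrays. P2ry12 and Slc2a5 had an r of 0.94 over the 9 arrays and of 0.09 over the 6, so that their likeness lay in the gap to sham. Csf1r and Cx3cr1 had 0.87 and 0.90. Slc2a5 and the brighter Siglech probe ran opposite ways, with -0.93 over 9 arrays and -0.70 over 6. All of these share the same arrays and the same 75th percentile on each. P2ry13, Tmem119, Csf1r and Cx3cr1 were each highest of the 6 on VEGF array 1. There they lay at 0.0064, 0.30, 1.53 and 1.53 log2 units from the sham mean. On the other VEGF and MCAO arrays they reached at most -0.88, -0.34, 0.65 and 0.51. Their r over 6 arrays thus depends in part on VEGF array 1, and no r without it was computed. Over all tested genes with a symbol outside the members, the profiles most like that of Slc2a5 over the 9 arrays were those of Cops7a (r = 0.986), Tceal7, Zmym3, Frg2f1, Add1, Ly6g6c, Dact3 and Dscaml1 (r = 0.978), whose log2 differences in MCAO against sham lay between -1.80 and -0.61. For P2ry12 they were Fxyd2 (r = 0.981), Irak1bp1, Chmp3, Dync1i2, Olfr464, Kptn, Ptpra and Slc25a53 (r = 0.960), between -2.51 and -0.26. Over the 6 VEGF and MCAO arrays the r of these genes with P2ry12 ran from -0.88 (Dync1i2, opposite) to 0.84 (Fxyd2). Olfr464 and Frg2f1 belong to multigene families, and a probe for either may read relatives. The profiles of the Slc2a5 group followed the low values of array 1 in both occluded groups, with an r of 0.82 to 0.98 over the 6 arrays.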

How the data were processed

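Per the labels' protocols, total RNA was extracted from homogenised brains and 200 ng was labelled with Cy3. Per the file headers and the submitters' processing notes, Agilent Feature Extraction 10.7.1.1 gave the deposited processed intensity, background-subtracted and, except on MCAO array 1, divided by a spatial detrending ratio; it is not scaled between arrays and is stored to few digits. The authors also deposited a value table, read as log2 values because its columns correlate at 0.998 to 1.00 with log2 intensity; its centring (array medians of 6.97) and scaling method are not stated. The log2 intensities were scaled by subtracting the 75th percentile of the non-control probes of each array. Outlier spots were dropped, and 43921 probes were kept, each well above background throughout at least 1 group; the brightest probe stood for a gene. Symbols came from RefSeq accessions (GRCm38.p6 table), for 26582 of 55681 probes. The comparisons used limma 3.58.1 (R 4.3.3, statmod 1.5.0), in 1 fit of 9 arrays with two-sided moderated tests and Benjamini-Hochberg adjustment over 30837 genes at 0.05; the median standard error was 0.31, and the number of arrays limits the precision. The test was checked on simulated data. No spot was saturated, and 73.0% to 81.8% of probes were well above background. "At least" folds set sham at the lowest signal well above background on each array, or its own where higher.

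The members and gene lists were chosen with earlier results of these data known. Named besides the members were, per list, up to 4 measured genes of smallest p in MCAO against sham, of which some are summarised as counts only, and the 8 genes most correlated with Slc2a5 and with P2ry12. Over all genes, deviations of same-numbered VEGF and MCAO arrays from their group means had r of 0.59, 0.22 and 0.56. Among different numbers, VEGF array 2 with MCAO array 3 had 0.23 and VEGF array 3 with MCAO array 2 had 0.39. Different-numbered pairs with a first array were all negative. Deviations within a group sum to 0 and the first arrays stood apart, so pairing by number cannot be read from these values. Same-numbered sham arrays had r between -0.11 and 0.15. The replicate block, used as an alternative only, grouped same-numbered arrays of all 3 groups. Background correction, scaling, filters, probe choice, left-out arrays, the replicate block, age and array weights were varied.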

Additional observations from a re-analysis of the deposited data

How the results depend on the processing

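P2ry12 and Slc2a5 kept their direction in both comparisons with sham under all 23 alternatives of each. In MCAO against sham P2ry12 ranged from -2.76 to -2.56 and Slc2a5 from -3.67 to -2.75. P2ry12 was called under all of them, whereas Slc2a5 was not called in either comparison when any 1 sham array was left out. Both genes were named with these contrasts known, so their calls are a description and nothing is read from them. In MCAO against sham 2 members were called as reported, where 845 of all 30837 genes were. The count was 3 with scaling to the median, where 1075 genes were called, and 4 with only the compared groups fitted, where 1797 were. It was 5 without both first VEGF and MCAO arrays (7291 genes) and 7 with array weights (18647 genes). With single arrays left out it ranged from 1 to 5. It was 1 without each sham array (189 to 239 genes) and 5 without VEGF array 1 (2609 genes). The members were chosen with these contrasts known, so these counts are a description. In VEGF against sham the count of 2 became 3 with scaling to the median (1449 genes). It became 4 without both first arrays and 5 with array weights, and ranged from 1 to 2 when single arrays were left out. In VEGF against MCAO it was 1 with array weights. The weights did not converge; the genes called over the whole array were 13413 (VEGF against sham), 18647 (MCAO against sham) and 6727 (VEGF against MCAO), where the reported fit called 717, 845 and 2. Without both first arrays the first 2 of these were 6514 and 7291, and without a single sham array 150 to 190 and 189 to 239. The replicate block grouped same-numbered arrays of all 3 groups, sham included, although sham numbers showed no pairing. Its values against sham rest on that grouping. With it no member was called in VEGF against MCAO, 2 were in VEGF against sham and 3 in MCAO against sham, P2ry13 being added. It changed no other member's call.

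The median over the members moved to -0.67 in VEGF against sham with all probes used, averaged or each on its own, and to -0.011 in VEGF against MCAO with array weights. Siglech turned to -0.73 in VEGF against sham and -0.92 in MCAO against sham under both probe choices. Csf1r turned to -0.029 in VEGF against sham without both first arrays and to -0.13 with weights, and to -0.017 and -0.083 in MCAO against sham; leaving out single arrays it ranged from -0.029 to 0.79 in VEGF against sham and from -0.017 to 0.32 in MCAO against sham. In VEGF against MCAO, array weights turned P2ry12 to -0.027, Cx3cr1 to -0.11, Gpr34 to -0.56, Siglech to -0.011 and Csf1r to -0.045. Siglech was also -0.084 with quantile normalization and with the authors' table, -0.0029 with age as a covariate and -0.18 without both first arrays, and Csf1r was -0.012 without both. Leaving out single arrays, VEGF against MCAO ranged from -0.34 to 0.54 for Slc2a5, -0.24 to 0.32 for Siglech, -0.23 to 0.59 for Csf1r and -0.015 to 0.43 for Sall1. The cause was not tested in any of these. The small number of arrays, a slide shared with occlusion and stored values of few digits limit the precision.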
